A study of Mus musculus with 16 samples.

Results

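The libraries titled as MII spermatocytes from Tex10-deficient mice were set against those from wild-type mice, with 2 libraries on each side and 4 of the 16 libraries of the series. They were chosen by sample title alone. The Tex10-deficient mice were Tex10f/-; Stra8iCre, in which a Cre recombinase under the Stra8 promoter acts on a floxed Tex10 allele opposite a null one. That promoter is active in germ cells from spermatogonia onwards. The wild-type (WT) mice carried no named allele. All mice were C57BL/6J males of 8 weeks, and the cells came from testis. RNA was extracted with Trizol and sequenced as polyA-enriched bulk libraries. The series, which asks how Tex10 deficiency changes transcript levels in germ cells, also holds spermatogonia, MI spermatocytes and spermatids of both genotypes. The sources used here state neither how the fractions were sorted nor whether replicates came from separate animals. The p-values therefore rest on the spread between replicate libraries, which may be technical. That spread was taken over all 16 libraries of the series, not over the MII libraries alone. Replicates were less alike in MII than in the other fractions, so these p-values may be too small.

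TEX10 is a nuclear protein that works with PELP1, WDR18, LAS1L and SENP3 in the rixosome, a complex that cuts the spacer RNA between ribosomal RNAs during maturation of the large ribosomal subunit and that also helps to silence heterochromatin. MI and MII spermatocytes are the cells of the first and second meiotic divisions, in which chromosomes are separated without an intervening round of DNA replication. MII spermatocytes are short-lived, and lie between MI spermatocytes, rich in transcripts for meiosis and for the later sperm tail, and round spermatids, which build the acrosome.

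The 4 MII libraries were first checked against markers of the labelled cell type and of other testis cells. Among 14 late spermatocyte genes, the median level was 5.65 and 11.4 FPKM (fragment counts scaled to transcript length and library size) in the Tex10-deficient libraries and 16 and 47.6 FPKM in the wild-type libraries. The same median was between 128 and 183 FPKM in the 4 MI libraries and between 272 and 382 FPKM in the 4 spermatid libraries. Genes of the meiotic divisions, 29 in number, had a median of 1.34 and 2.46 FPKM in Tex10-deficient MII libraries and 3.16 and 10.2 FPKM in wild-type MII libraries, all lower than in the other fractions, where no library was below 15 FPKM. Somatic transcripts stood high instead. Markers of myoid, endothelial and stromal cells (11 of 19 listed genes tested) had a median of 71.1 and 84.4 FPKM in Tex10-deficient MII libraries, against 56.4 and 43.6 FPKM in wild-type MII libraries, and at most 13.9 FPKM in the other fractions. Leydig cell markers, all 12 of them tested, had a median of 30.4 and 36.8 FPKM in the Tex10-deficient libraries and 47.6 and 33.8 FPKM in the wild-type libraries, and at most 13.1 FPKM elsewhere. The markers thus go against the cell type in the title, and the libraries are called the MII fraction here.

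**Figure D1:**
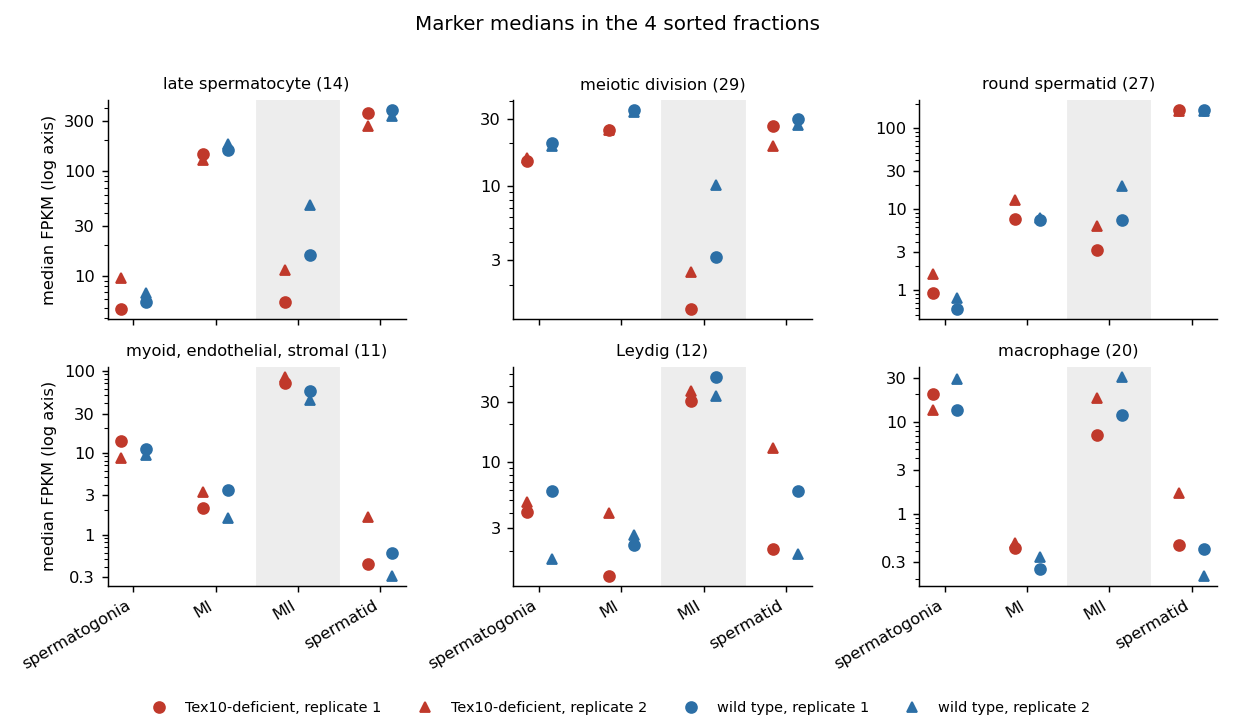
Median FPKM (log axis) of 6 marker lists in every library, by fraction on the x axis, with the number of genes in each title, Tex10-deficient libraries in red and wild-type libraries in blue (circle, replicate 1; triangle, replicate 2). In the shaded MII fraction, meiotic division medians are 1.34 and 2.46 FPKM in Tex10-deficient and 3.16 and 10.2 FPKM in wild-type libraries, below every other fraction, while myoid, endothelial and stromal medians of 43.6 to 84.4 FPKM are above every other fraction.

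The 4 libraries did not divide by genotype. WT replicate 1 had its highest Spearman rho across genes with Tex10-deficient replicate 2 (0.946), above the rho of 0.881 with its own replicate and 0.922 between the Tex10-deficient replicates. Between replicates in the other fractions rho was 0.939 to 0.971. A spread pooled over all 16 libraries may therefore be too small for the MII fraction. Genes are not independent replicates. On log2(FPKM + 1), 845 genes differed at least 2-fold between Tex10-deficient replicate 2 and WT replicate 1, 1576 between the Tex10-deficient replicates and 2439 between the WT replicates. Of these 2439, 1962 were higher in WT replicate 2. Genes at or above 1 FPKM numbered 11055 and 11682 in the Tex10-deficient libraries and 11555 and 12394 in the wild-type libraries. In the labels' cell type field the Tex10-deficient MII libraries are called spermatogonia and MI spermatocyte, whereas by rho each was nearest to other MII libraries. In every MII library Dcn, Gsn and Serping1, which encode a matrix proteoglycan, an actin-severing protein and a complement inhibitor, were among the 15 most abundant genes.

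Tex10 itself (XLOC_015051, chr4:48430858-48473459, minus strand, mm10) stood at 8.11 and 7.29 FPKM in the Tex10-deficient MII libraries, against 13.8 and 27.4 FPKM in the wild-type MII libraries. The groups did not overlap, and the mean in Tex10-deficient libraries was 37.4% of wild type. The log2 difference was −1.24 (SE 0.31, limma adjusted p = 0.095), so it did not pass at 0.05 over 13099 genes. It was −0.77 (adjusted p = 0.78) without WT replicate 2 and −1.71 (adjusted p = 0.0031) without WT replicate 1. In the other fractions the differences were −1.65 in spermatogonia (limma adjusted p = 0.10), −2.17 in MI spermatocytes (0.012) and −1.66 in spermatids (0.23), so MI alone passed at 0.05. The MII difference was 0.59 (SE 0.36) above the mean of the other fractions (adjusted p = 0.68). The sources used here do not name the exons that the null and floxed alleles remove, so the Tex10 values may include exons outside the deleted stretch. In a bulk fraction with somatic transcripts, fewer germ cells and less RNA per germ cell cannot be told apart.

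The other 6 listed members of the complex had no difference past the test. Las1l (X chromosome), the nuclease subunit, stood at 12.7 and 11.5 FPKM in Tex10-deficient libraries and 9.37 and 7.91 FPKM in wild-type libraries (log2 difference 0.45, SE 0.28, adjusted p = 0.55). Wdr18, a WD-repeat scaffold subunit, stood at 3.797 and 2.28 FPKM in Tex10-deficient libraries and 1.35 and 1.72 FPKM in wild-type libraries (0.65, SE 0.34, adjusted p = 0.46). For both genes the Tex10-deficient libraries lay above the wild-type libraries, neither past the test. Senp3, the SUMO protease of the complex, stood at 7.02 and 7.68 FPKM in Tex10-deficient libraries, below the 9.09 and 7.88 FPKM of the wild-type libraries (−0.18, adjusted p = 0.85). The libraries of Pelp1, the scaffold subunit, Nol9, the RNA kinase that acts with Las1l, and Mdn1, the ATPase that releases the complex from the pre-ribosome, overlapped, with log2 differences of −0.18, −0.07 and −0.44. Over all 7 genes the median was −0.18 with 5 lower estimates, where 51.5% of all genes tested had a lower estimate and the median over all genes was −0.02. Without WT replicate 2 the median of the 7 was 0.07.

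Rxfp1 fell, and was the only gene called in the comparison. It entered the test, which asked for 1 FPKM in 2 libraries, through the wild-type MII libraries alone, the group in which it was high. It encodes the receptor for relaxin, a G protein-coupled receptor. The gene (XLOC_013798, chr3:79641611-79737880, minus strand, mm10) stood at 0.0415 and 0.489 FPKM in the Tex10-deficient MII libraries, against 6.67 and 6.34 FPKM in the wild-type MII libraries. The wild-type libraries were close to each other, and both Tex10-deficient libraries lay well below them, under 1 FPKM. The log2 difference was −2.59 (SE 0.26, limma adjusted p = 0.0014). In the 12 libraries of the other fractions Rxfp1 did not exceed 0.697 FPKM, and the 6 Tex10-deficient ones among them held between 0 and 0.169 FPKM. The MII difference was 2.26 lower on the log2 scale than the mean difference in the other fractions (−2.26, adjusted p = 0.039), again the 1 gene called, which is 0.00763% of the 13099 tested, beside 9.69% at an unadjusted p under 0.05. No gene was called for that difference in 12 of 16 fits that each left out 1 library, namely every MI and spermatid library, every spermatogonia library but WT replicate 1, and wild-type MII replicate 2. At such low levels log2(FPKM + 1) keeps the differences of the other fractions small, so that this contrast largely restates the MII difference. Over all 16 such fits the MII difference itself ranged from −2.85 to −2.33 on the log2 scale. These fits kept the genes of the full test. With 1 wild-type MII library left out, Rxfp1 would no longer reach 1 FPKM in 2 libraries, yet it was still tested. With a pseudocount of 0.1 the difference was −4.52 and the adjusted p 0.053, and in a fit of the 4 MII libraries alone the adjusted p was 0.75. The SE of the main fit drew on all 16 libraries, among them the 12 of the other fractions, in which the gene was low.

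**Figure D2:**
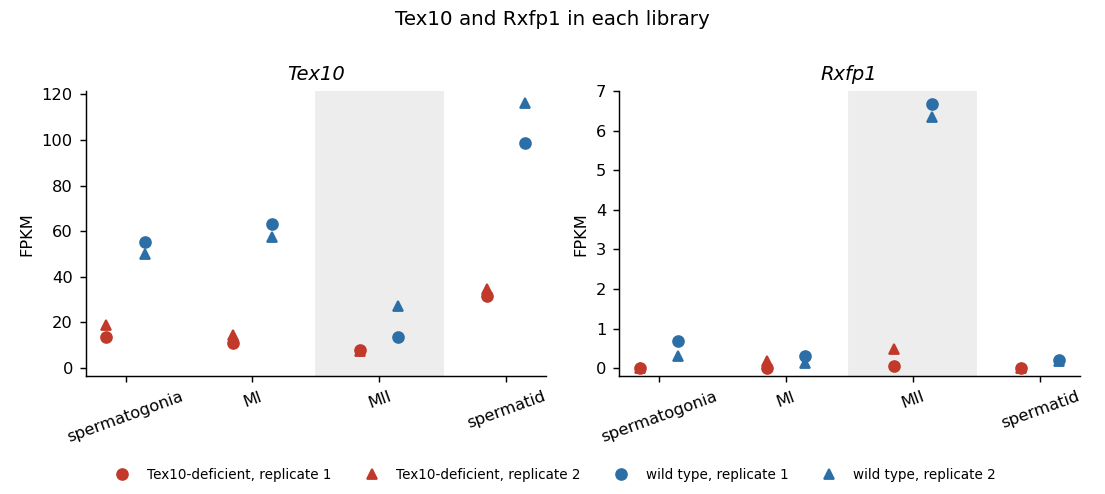
FPKM (linear axis) of Tex10 and Rxfp1 in all 16 libraries by fraction, Tex10-deficient in red to the left of wild type in blue, circle for replicate 1 and triangle for replicate 2. Tex10 is lower in Tex10-deficient libraries in each fraction, with the smallest gap in the shaded MII fraction, and Rxfp1 exceeds 1 FPKM in the 2 wild-type MII libraries alone.

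Of the relaxin family, 4 of 9 listed genes were tested, Rxfp1 among them. Insl3, the Leydig cell hormone, stood at 979 and 555 FPKM in Tex10-deficient libraries and at 918 and 463 FPKM in wild-type libraries (log2 difference 0.18, SE 1.07, adjusted p = 0.97). Insl6, a relaxin-like peptide of germ cells, stood at 14.3 and 11.01 FPKM in Tex10-deficient libraries and at 8.93 and 19.9 FPKM in wild-type libraries (log2 difference −0.09, SE 0.46, adjusted p = 0.97). Both genes overlapped between genotypes. Rxfp2, the receptor of INSL3, stayed at or below 0.0990 FPKM in the Tex10-deficient libraries and at 0.138 and 0.843 FPKM in the wild-type libraries, and was not called. Rxfp2 falls outside the rule for naming genes and was chosen after its values were seen.

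With limma, 1 gene was called lower (0.00763% of the genes tested) and 0 higher (0.0%). At an unadjusted p under 0.05 there were 1738 genes (13.3%), of which 1379 were lower (10.5%) and 359 higher (2.74%). How many genes were called varied with single libraries. Without WT replicate 1 the fit called 1207 genes lower (9.21%) and 47 higher (0.359%), and without WT replicate 2 it called 3 lower (0.0229%) and 2 higher (0.0153%). Without Tex10-deficient replicate 2 it called 220 lower (1.68%) and 17 higher (0.13%), and without Tex10-deficient replicate 1 it called 1 lower (0.00763%) and 2 higher (0.0153%). In these fits the lone library of a genotype is assumed to vary like the other groups. They kept the genes of the full test, also where a gene would no longer reach 1 FPKM in 2 libraries. The median log2 difference over all genes was −0.00 without WT replicate 2 and −0.02 without WT replicate 1. It was 0.08 without Tex10-deficient replicate 1 and −0.15 without Tex10-deficient replicate 2. Without WT replicate 2, Rxfp1 and Saxo1os were among the lower genes, and the 2 higher ones were Foxs1 and Rpp25l; Zfp641 and Ppm1h were the 2 higher genes without Tex10-deficient replicate 1. Saxo1os, Foxs1 and Ppm1h were chosen after their values were seen.

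Scaling changed the balance of the calls as well. Median-of-ratios scaling gave 73 lower (0.557%) and 5 higher (0.0382%), and quantile normalization gave 149 lower (1.14%) and 41 higher (0.313%) while moving the median of all genes by 0.11 to 0.10. A pseudocount of 5 gave 3 lower (0.0229%) and 18 higher (0.137%). Rxfp1 was called in each of these fits. Genes high in spermatids made up most of the lower calls where there were many. Of genes at least 2 log2 units higher in wild-type spermatids than in wild-type spermatogonia (3179 of 13099, a list added after seeing the data), there were 1006 among the 1207 lower calls without WT replicate 1, that is 83.3% of those calls, and 197 of 220 (89.5%) without Tex10-deficient replicate 2. In the fit of all libraries the 3179 genes had a median of −0.64, and 2740 had a lower estimate. That median was −0.23 without WT replicate 2, −1.06 without WT replicate 1 and −0.39 without Tex10-deficient replicate 1. Their median level was 2.08 and 4.08 FPKM in the Tex10-deficient libraries and 4.19 and 9.05 FPKM in the wild-type libraries, so that Tex10-deficient replicate 2 and WT replicate 1 were side by side.

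Genes of the meiotic divisions were low in the Tex10-deficient libraries, and 0 of 29 passed the test over all genes. Cdc20, which activates the anaphase-promoting complex, stood at 1.28 and 1.47 FPKM in Tex10-deficient libraries, against 6.32 and 10.6 FPKM in wild-type libraries (log2 difference −1.96, SE 0.37, adjusted p = 0.074). Ccnb1, the cyclin B1 partner of CDK1, stood at 0.450 and 1.17 FPKM in Tex10-deficient libraries and 3.21 and 6.45 FPKM in wild-type libraries (−1.66, SE 0.32, adjusted p = 0.074). For both genes the 4 libraries separated by genotype, and the 2 wild-type libraries were within about 2-fold of each other.

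The promoters of Cdc20 and Ccnb1 are shown because both genes lie close to the threshold. Aurka of the same list had the same adjusted p (limma, 0.074), so closeness to the threshold does not single out Cdc20 and Ccnb1. Cell cycle genes of this kind also often carry a CHR element near a CCAAT box, the sites of the DREAM and NF-Y complexes. Each run is the 250 bases before the gene start, 5′ to 3′ on the gene's strand, from RefSeq on GRCm38.p6, with CCAAT and the CHR letters TTTGAA in capitals on whichever strand they lie. Cdc20 covers chr4:118437344-118437593 (minus strand) and Ccnb1 chr13:100786487-100786736 (minus strand).
Cdc20: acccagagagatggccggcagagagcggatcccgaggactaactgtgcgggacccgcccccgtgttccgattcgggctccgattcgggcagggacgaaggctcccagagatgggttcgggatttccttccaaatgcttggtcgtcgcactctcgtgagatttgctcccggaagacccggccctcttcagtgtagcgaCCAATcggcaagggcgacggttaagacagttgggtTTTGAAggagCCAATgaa
Ccnb1: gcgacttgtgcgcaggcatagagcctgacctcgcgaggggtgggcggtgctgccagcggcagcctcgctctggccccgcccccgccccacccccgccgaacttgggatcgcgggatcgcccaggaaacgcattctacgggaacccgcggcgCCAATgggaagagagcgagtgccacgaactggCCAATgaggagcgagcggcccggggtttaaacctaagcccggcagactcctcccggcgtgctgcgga
The Cdc20 window holds 1 TTTGAA match, which starts 18 bases before the gene start, and 2 CCAAT matches. In the Ccnb1 window there are 2 CCAAT matches and 0 TTTGAA matches. Only these letters were searched for, so a CHR element with other letters would be missed in either window and in the counts below. Promoters were matched for 22 of the 29 division genes and for 9999 genes tested. With both strands searched, and a base that both motifs share counted for each, TTTGAA was in 5 of the 22 division promoters (22.7%), against 11% of the 9999, and CCAAT in 16 of 22 (72.7%), against 36.6%. A match describes the letters and is not evidence of binding.

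Aurka and Ccnb2 also separated by genotype, with wider gaps between the wild-type libraries. Aurka, a spindle kinase, stood at 3.82 and 4.87 FPKM in Tex10-deficient libraries, against 11 and 50.4 FPKM in wild-type libraries (log2 difference −2.22, SE 0.47, adjusted p = 0.074). Ccnb2, cyclin B2, stood at 5.85 and 8.98 FPKM in Tex10-deficient libraries, against 15.7 and 57.0 FPKM in wild-type libraries (−1.91, SE 0.43, adjusted p = 0.079). In both genes WT replicate 2 held more than 3 times the level of WT replicate 1. Pttg1, the separase inhibitor securin, went most against the list, with 43.5 and 21.4 FPKM in Tex10-deficient libraries and 6.90 and 40.4 FPKM in wild-type libraries (0.80, SE 0.57, adjusted p = 0.63), and its groups overlapped.

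Over the 29 division genes, 27 had a lower estimate and in 25 both Tex10-deficient libraries lay below both wild-type libraries, against 18.0% of all genes. At an unadjusted p under 0.05, 21 were lower (10.5% of all genes). The median was −1.28, against −0.02 over all genes. Without WT replicate 2 the median was −0.57, without WT replicate 1 it was −1.99, and without Tex10-deficient replicate 1 it was −1.07. Over all genes the medians in these fits were −0.00, −0.02 and 0.08. WT replicate 2 was the highest library in 26 of the 29 genes and Tex10-deficient replicate 1 the lowest in 23. Stromal marker medians ran the other way, with 71.1 and 84.4 FPKM in Tex10-deficient libraries and 56.4 and 43.6 FPKM in wild-type libraries, and their part in the germ cell differences was not tested.

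**Figure D3:**
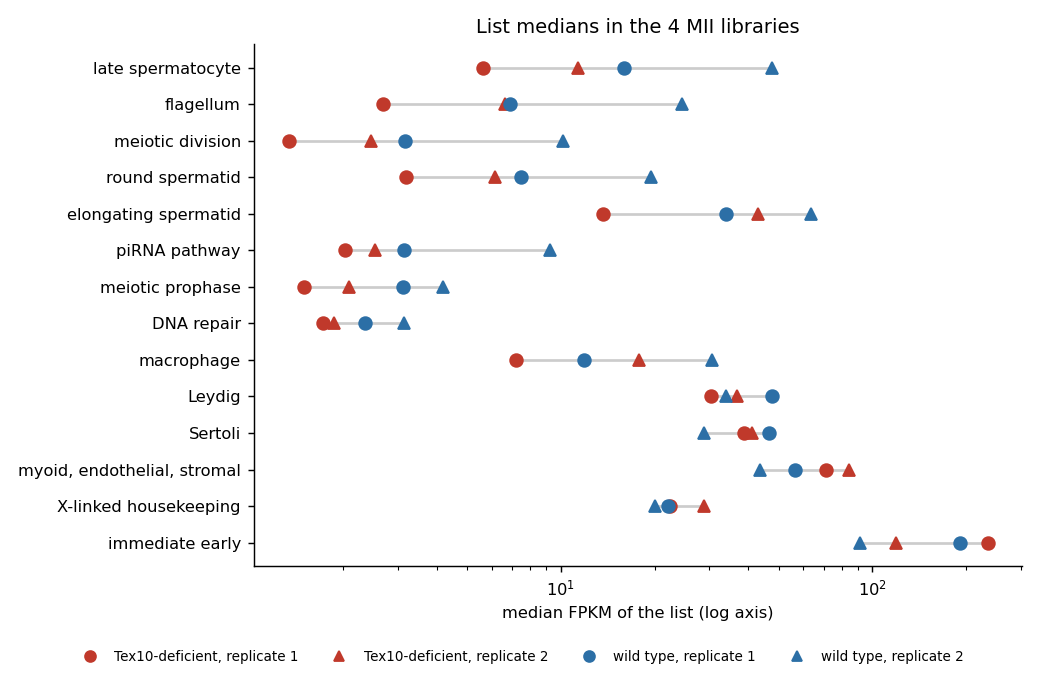
Median FPKM (log axis) of 14 gene lists in the 4 MII libraries, 1 list a row, Tex10-deficient in red and wild type in blue, circle for replicate 1 and triangle for replicate 2, with a grey line from the lowest to the highest library. For late spermatocyte, flagellum, meiotic division, round spermatid, piRNA, meiotic prophase and DNA repair genes the order is Tex10-deficient replicate 1, Tex10-deficient replicate 2, WT replicate 1, WT replicate 2 from low to high, and elongating spermatid, macrophage and somatic lists have other orders.

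Late spermatocyte genes showed the same arrangement of libraries. Ldhc, the germ cell form of lactate dehydrogenase, stood at 55.9 and 91.1 FPKM in Tex10-deficient libraries and 111 and 337 FPKM in wild-type libraries (log2 difference −1.42, SE 0.49, adjusted p = 0.20). Clgn, a chaperone of the spermatocyte endoplasmic reticulum, stood at 14.9 and 45.1 FPKM in Tex10-deficient libraries and 60.5 and 235 FPKM in wild-type libraries (−2.15, SE 0.57, adjusted p = 0.10). Neither gene's groups overlapped, and the gap between the wild-type libraries was wider than that between genotypes at its nearest. Ccna1, the germ cell cyclin A1 needed for the first meiotic division, stood at 2.78 and 4.95 FPKM in Tex10-deficient libraries and 8.42 and 30.2 FPKM in wild-type libraries (−1.85, SE 0.49, adjusted p = 0.10). All 14 genes had a lower estimate, 12 did not overlap (18.0% of all genes), 13 were lower at an unadjusted p under 0.05 (10.5% of all genes) and 0 passed over all genes, with a median of −1.44. The median was −0.66 without WT replicate 2, −2.24 without WT replicate 1, and −1.18 without Tex10-deficient replicate 1. Pou5f2, a POU-domain gene, had the smallest difference (−0.41, adjusted p = 0.80).

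Genes of the sperm flagellum formed the largest of these groups. Dnah8, a dynein heavy chain of the sperm tail, stood at 6.19 and 16.4 FPKM in Tex10-deficient libraries and 30.5 and 119.5 FPKM in wild-type libraries (log2 difference −2.46, SE 0.54, adjusted p = 0.074). Spag6, a protein of the central apparatus, stood at 4.92 and 11.6 FPKM in Tex10-deficient libraries and 20.1 and 80.5 FPKM in wild-type libraries (−2.26, SE 0.49, adjusted p = 0.074). Both genes were lowest in Tex10-deficient replicate 1 and highest in WT replicate 2, with about a 4-fold gap between the wild-type libraries. Tekt3, a tektin of the tail microtubules, stood at 22.7 and 42.0 FPKM in Tex10-deficient libraries and 54.8 and 222 FPKM in wild-type libraries (−1.81, SE 0.58, adjusted p = 0.16). Of 40 genes tested, 39 had a lower estimate, 31 did not overlap on the lower side (18.0% of all genes) and 34 were lower at an unadjusted p under 0.05 (10.5% of all genes), while 0 passed over all genes. Their median of −1.66 was −0.65 without WT replicate 2, −2.54 without WT replicate 1, and −1.22 without Tex10-deficient replicate 1. Spef1, a microtubule-binding flagellar protein, had the 1 higher estimate, at 0.942 and 0.897 FPKM in Tex10-deficient libraries and 0 and 0.604 FPKM in wild-type libraries.

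Round spermatid genes also had mostly lower estimates. Acrbp, a protein of the acrosome, stood at 6.54 and 7.13 FPKM in Tex10-deficient libraries, against 17.0 and 54.0 FPKM in wild-type libraries (log2 difference −2.01, SE 0.44, adjusted p = 0.074). Zpbp2, which binds the zona pellucida, stood at 3.24 and 8.00 FPKM in Tex10-deficient libraries and 12.5 and 71.2 FPKM in wild-type libraries (−2.34, SE 0.58, adjusted p = 0.095). Both were without overlap, and the wild-type libraries of Zpbp2 were more than 5-fold apart. Of 27 round spermatid genes, 26 had a lower estimate, 16 did not overlap on the lower side (18.0% of all genes) and 14 were lower at an unadjusted p under 0.05 (10.5%). Their median was −1.20. The median was −0.54 without WT replicate 2, −1.98 without WT replicate 1 and −0.92 without Tex10-deficient replicate 1. Tssk6, a testis-specific kinase, had the 1 higher estimate, with 2.74 and 1.74 FPKM in Tex10-deficient libraries and 1.22 and 0 FPKM in wild-type libraries.

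Elongating spermatid genes had a median of −0.85, with 14 of 17 lower, 6 without overlap (18.0% of all genes) and 4 lower at an unadjusted p under 0.05 (10.5%). Oaz3, the antizyme of spermatids, stood at 3.796 and 10.1 FPKM in Tex10-deficient libraries and 19.0 and 14.2 FPKM in wild-type libraries (log2 difference −1.26, SE 0.43, adjusted p = 0.20). Prm2, a protamine that packs sperm DNA, stood at 68.8 and 175 FPKM in Tex10-deficient libraries and 220 and 185 FPKM in wild-type libraries (−0.87, SE 0.62, adjusted p = 0.62). In both genes WT replicate 1, not replicate 2, was the highest library. WT replicate 2 was the highest in 10 of the 17 genes of the list. The list's median was −0.63 without WT replicate 2, −0.13 without Tex10-deficient replicate 1 and −1.54 without Tex10-deficient replicate 2. It thus turned on which of these libraries was kept. Over all genes the median was 0.08 without Tex10-deficient replicate 1 and −0.15 without Tex10-deficient replicate 2.

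Meiotic prophase and piRNA genes had medians of −0.86 each. Sycp3, of the synaptonemal complex, stood at 5.93 and 11.3 FPKM in Tex10-deficient libraries and 19.9 and 47.4 FPKM in wild-type libraries (log2 difference −1.78, SE 0.44, adjusted p = 0.094). Stag3, a meiotic cohesin subunit, stood at 6.53 and 13.7 FPKM in Tex10-deficient libraries and 19.2 and 68.7 FPKM in wild-type libraries (−1.83, SE 0.47, adjusted p = 0.10). The groups of these structural genes did not overlap. Of 25 prophase genes, 24 had a lower estimate, 12 did not overlap (18.0% of all genes) and 11 were lower at an unadjusted p under 0.05 (10.5%). The median of the prophase genes was −0.20 without WT replicate 2, −1.25 without WT replicate 1 and −0.65 without Tex10-deficient replicate 1.

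Among 21 piRNA pathway genes, which silence transposons in germ cells, 20 had a lower estimate, 11 did not overlap (18.0% of all genes) and 12 were lower at an unadjusted p under 0.05 (10.5%). Henmt1, which methylates the ends of piRNAs, stood at 0.230 and 1.33 FPKM in Tex10-deficient libraries and 2.72 and 5.71 FPKM in wild-type libraries (log2 difference −1.56, SE 0.40, adjusted p = 0.098). Ddx4, the germ cell RNA helicase, stood at 7.17 and 7.61 FPKM in Tex10-deficient libraries and 12.8 and 43.1 FPKM in wild-type libraries (−1.56, SE 0.43, adjusted p = 0.11). The piRNA median was −0.41 without WT replicate 2, −1.55 without WT replicate 1 and −0.77 without Tex10-deficient replicate 1.

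DNA repair genes had a median of −0.26, with 20 of 25 lower. Of the 25, 4 did not overlap and 3 were lower at an unadjusted p under 0.05, close to the 18.0% and 10.5% of all genes. Atr, a checkpoint kinase that acts on the unpaired sex chromosomes in meiosis, stood at 7.31 and 12.8 FPKM in Tex10-deficient libraries and 14.04 and 27.5 FPKM in wild-type libraries (log2 difference −0.95, SE 0.34, adjusted p = 0.21). WT replicate 1 was close to Tex10-deficient replicate 2 in this gene. The list's median was 0.05 without WT replicate 2 and −0.58 without WT replicate 1. It was −0.19 without Tex10-deficient replicate 1 and −0.47 without Tex10-deficient replicate 2, against 0.08 and −0.15 over all genes.

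**Figure D4:**
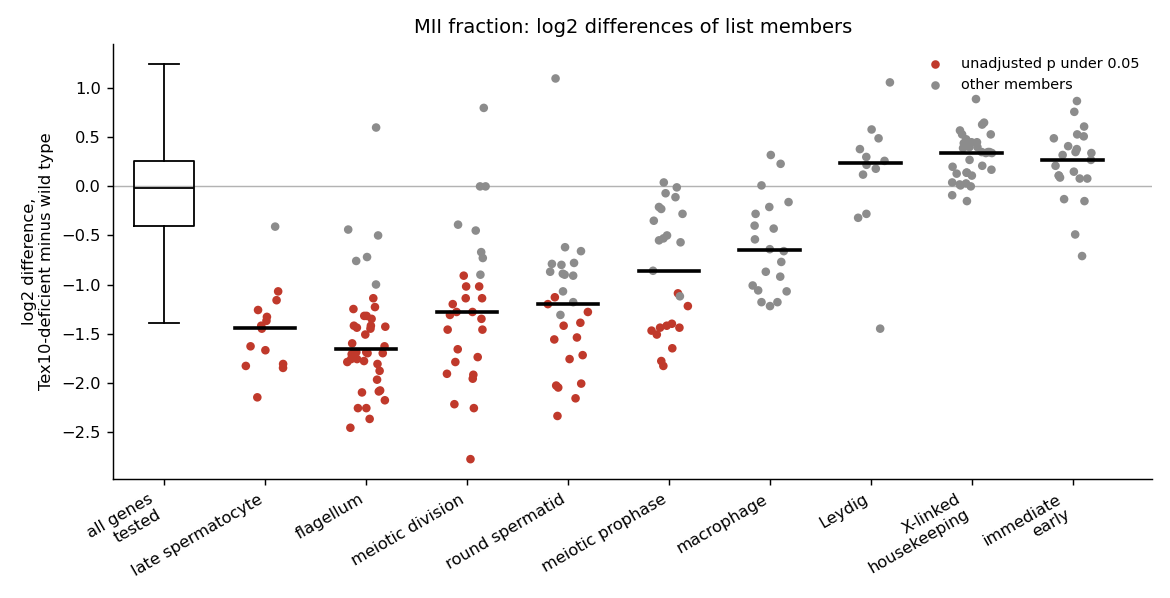
Log2 differences, Tex10-deficient minus wild type in the MII fraction, for members of 9 lists, 1 point a gene (red where the unadjusted p is under 0.05) and a black bar at each median; the box at the left shows the quartiles of all 13099 genes tested, with whiskers to the last gene within 1.5 box lengths. Medians are −1.66 for flagellum, −1.44 for late spermatocyte and −1.28 for meiotic division genes, against −0.02 over all genes, and 0.34 for X-linked housekeeping genes.

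Spermatogonia markers had a median of −0.18 over 15 genes, with 10 lower and 2 lower at an unadjusted p under 0.05 (10.5% of all genes). The median was 0.02 under quantile normalization. Dmrtb1, a transcription factor that guards entry into meiosis, stood at 2.63 and 6.73 FPKM in Tex10-deficient libraries and 12.4 and 43.5 FPKM in wild-type libraries (log2 difference −2.20, SE 0.55, adjusted p = 0.096). Zbtb16, a factor of undifferentiated spermatogonia, stood at 16.9 and 16.7 FPKM in Tex10-deficient libraries, above the 6.17 and 12.5 FPKM of wild-type libraries (0.86, SE 0.46, adjusted p = 0.47). These 2 genes of the same list had estimates of opposite sign, neither past the test. The list's median was −0.28 without WT replicate 1, −0.12 without WT replicate 2 and −0.07 without Tex10-deficient replicate 1.

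No listed gene of ribosome biogenesis or of heterochromatin, the processes in which TEX10 takes part, passed the test. Of 30 ribosome biogenesis genes, 19 had a lower estimate (median −0.08), 3 did not overlap on the lower side (18.0% of all genes) and 5 on the higher side (17.3%), and 0 had an unadjusted p under 0.05 (13.3%). Nop58, a core protein of box C/D snoRNPs, stood at 68.2 and 61.2 FPKM in Tex10-deficient libraries and 60.1 and 57.1 FPKM in wild-type libraries (log2 difference 0.14, SE 0.25, adjusted p = 0.89). Nop2, a ribosomal RNA methyltransferase, stood at 11.8 and 6.95 FPKM in Tex10-deficient libraries and 6.86 and 4.89 FPKM in wild-type libraries (0.57, SE 0.35, adjusted p = 0.54). In both genes the Tex10-deficient libraries lay above the wild-type libraries. The median was 0.02 under quantile normalization. Leaving out 1 MII library gave list medians between −0.09 (without Tex10-deficient replicate 2) and 0.05 (without Tex10-deficient replicate 1). Over all genes the medians in these fits were −0.15 and 0.08.

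Heterochromatin and Polycomb genes had a median of −0.17 over 18 genes, with 11 lower and 2 lower at an unadjusted p under 0.05 (10.5% of all genes). Ezh2, the methyltransferase of Polycomb complex PRC2, stood at 2.45 and 3.63 FPKM in Tex10-deficient libraries and 5.23 and 11.6 FPKM in wild-type libraries (log2 difference −1.15, SE 0.35, adjusted p = 0.14). Kdm2b, which brings a PRC1 complex to CpG islands, stood at 4.11 and 5.45 FPKM in Tex10-deficient libraries and 7.85 and 12.3 FPKM in wild-type libraries (−0.92, SE 0.28, adjusted p = 0.14). The groups of both were apart, with WT replicate 2 highest. Trim28, the corepressor of KRAB zinc finger proteins, stood at 20.6 and 15.1 FPKM in Tex10-deficient libraries and 27.6 and 23.5 FPKM in wild-type libraries (−0.51, SE 0.38, adjusted p = 0.65). The list's median was −0.33 without WT replicate 1 and −0.11 without WT replicate 2.

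Somatic lists went in different directions. Of the myoid, endothelial and stromal markers, 8 of 11 had a higher estimate (48.4% of all genes did), 2 did not overlap on the higher side (17.3% of all genes) and 0 had an unadjusted p under 0.05, with a median of 0.43. Col1a2, a chain of type I collagen, stood at 350.3 and 739.8 FPKM in Tex10-deficient libraries and 279 and 376 FPKM in wild-type libraries (log2 difference 0.65, SE 0.62, adjusted p = 0.74), and the libraries overlapped. The median of this list was 0.07 without WT replicate 2, 0.67 without WT replicate 1, 0.25 without Tex10-deficient replicate 1 and 0.17 without Tex10-deficient replicate 2. Summed over the 11 genes, the level was 5053 and 5450 FPKM in the Tex10-deficient libraries and 4823 and 3050 FPKM in the wild-type libraries, with no member at 0.

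The Leydig cell median was 0.24 (9 of 12 markers higher), and 0.12 without WT replicate 2. Cyp11a1, which makes pregnenolone from cholesterol, went most against the list, at 21.1 and 43.2 FPKM in Tex10-deficient libraries and 97.4 and 72.8 FPKM in wild-type libraries (log2 difference −1.45, SE 0.73, adjusted p = 0.43). Hsd3b6, a steroid dehydrogenase with a close paralog in Hsd3b1, stood at 255 and 388 FPKM in Tex10-deficient libraries and 167 and 135 FPKM in wild-type libraries (1.06, SE 0.90, adjusted p = 0.70). For these 2 steroidogenic genes the groups were apart in opposite directions, and neither passed. Summed Leydig levels were 1578 and 1379 FPKM in the Tex10-deficient libraries and 1502 and 993.1 FPKM in the wild-type libraries. Sertoli cell markers (7 of 14 listed genes tested) had a median of 0.13, which was −0.12 without WT replicate 2, 0.39 without WT replicate 1 and −0.16 without Tex10-deficient replicate 1. Their summed level was 308 and 319 FPKM in the Tex10-deficient libraries and 324 and 256 FPKM in the wild-type libraries.

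The macrophage median was −0.65. Of 20 markers, 17 were lower, 6 of them without overlap (18.0% of all genes), and 0 had an unadjusted p under 0.05 (13.3%). Lyz2, the macrophage lysozyme, stood at 43.1 and 66.5 FPKM in Tex10-deficient libraries and 78.2 and 125 FPKM in wild-type libraries (log2 difference −0.87, SE 0.42, adjusted p = 0.40). C1qb, of the first complement component, stood at 32.8 and 56.5 FPKM in Tex10-deficient libraries and 66.7 and 126 FPKM in wild-type libraries (−1.07, SE 0.55, adjusted p = 0.44). Cd74, the most abundant marker of the list, overlapped, at 108.8 and 80.4 FPKM in Tex10-deficient libraries and 81.1 and 143.7 FPKM in wild-type libraries (−0.21, SE 0.43). H2-Ab1, an antigen-presenting gene, went most against the list (0.32, SE 0.51), and its groups overlapped. WT replicate 2 was the highest library in 18 of the 20 genes. The median was −0.25 without WT replicate 2, −1.20 without WT replicate 1, −0.39 without Tex10-deficient replicate 1 and −1.07 without Tex10-deficient replicate 2. Over all genes the median was −0.02 without WT replicate 1 and −0.15 without Tex10-deficient replicate 2. The summed level of the 20 markers was 428 and 483 FPKM in Tex10-deficient libraries and 463 and 859 FPKM in wild-type libraries. Of 8 T and NK cell markers tested, 3 or 4 were listed at 0 in each library, Cd3g and Ifng among them in all 4. Their sums were 8.63 and 6.95 FPKM in Tex10-deficient libraries and 9.70 and 10.8 FPKM in wild-type libraries. Most of each sum was Cd247, a T cell receptor chain, with 6.99 and 5.70 FPKM in Tex10-deficient libraries and 8.54 and 9.35 FPKM in wild-type libraries.

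For X-linked housekeeping genes, which are silenced in prophase spermatocytes, the median was 0.34, and 31 of 33 were higher (48.4% of all genes). The list's median was also above 0 in spermatogonia (0.12), MI spermatocytes (0.28) and spermatids (0.21). For the MII difference minus the mean of the other fractions the median was 0.07. In 14 of them both Tex10-deficient libraries lay above both wild-type libraries (17.3% of all genes), and 0 had an unadjusted p under 0.05 (13.3%). Rpl10, a ribosomal protein, stood at 489.9 and 344 FPKM in Tex10-deficient libraries and 291 and 169 FPKM in wild-type libraries (log2 difference 0.89, SE 0.55, adjusted p = 0.55). Lamp2, a lysosomal membrane protein, stood at 207 and 241 FPKM in Tex10-deficient libraries and 178 and 134 FPKM in wild-type libraries (0.53, SE 0.46, adjusted p = 0.71). In both genes WT replicate 2, the library with the highest late spermatocyte median, was the lowest. Without that library the list's median was 0.14, and without Tex10-deficient replicate 2 it was 0.16. Over all 483 X-linked genes tested, a set added after seeing the data, the median was 0.14. It was 0.31 without Tex10-deficient replicate 1 and −0.05 without Tex10-deficient replicate 2. In the same fits the median over all genes tested was 0.08 and −0.15.

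Among Y-linked genes the median was 0.21 over 7 (0.10 and 0.43 without WT replicates 2 and 1, 0.33 and 0.04 without Tex10-deficient replicates 1 and 2), and 1 had an unadjusted p under 0.05 (13.3% of all genes). This was Zfy2, a zinc finger gene of late spermatogenesis, at 0.0524 and 0.664 FPKM in Tex10-deficient libraries and 1.26 and 2.15 FPKM in wild-type libraries (log2 difference −1.01, SE 0.39, adjusted p = 0.26). Its groups were apart, and it was the member that went most against its list.

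For immediate early and stress genes the median was 0.27. Of 23, 19 were higher (48.4% of all genes), 3 without overlap (17.3%), and 0 had an unadjusted p under 0.05 (13.3%). Their median level was 234 and 119 FPKM in Tex10-deficient libraries and 191 and 91.3 FPKM in wild-type libraries, so that replicate 1 of each genotype was the higher. The list's median was −0.17 without WT replicate 2, 0.72 without WT replicate 1, −0.00 without Tex10-deficient replicate 1 and 0.42 without Tex10-deficient replicate 2. Interferon response genes had a median of 0.25 over 11. It was 0.40 without WT replicate 1 and −0.02 without Tex10-deficient replicate 2, against −0.02 and −0.15 over all genes. Ifit3, an interferon-induced antiviral gene, stood at 7.60 and 6.16 FPKM in Tex10-deficient libraries and 2.29 and 3.78 FPKM in wild-type libraries (log2 difference 0.98, SE 0.28, adjusted p = 0.12), and was the 1 member higher at an unadjusted p under 0.05 (2.74% of all genes).

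NF-kB targets had a median of 0.10 over 16 genes. At an unadjusted p under 0.05, 2 were lower, close to the 10.5% of all genes, and both encode chemokines. Ccl2, which draws monocytes (XLOC_002971, chr11:82035571-82037453, plus strand, mm10), stood at 3.67 and 8.20 FPKM in Tex10-deficient libraries and 28.9 and 22.8 FPKM in wild-type libraries (log2 difference −2.02, SE 0.35, adjusted p = 0.074). Cxcl2, which draws neutrophils, stood at 8.46 and 17.1 FPKM in Tex10-deficient libraries and 28.4 and 37.7 FPKM in wild-type libraries (−1.36, SE 0.45, adjusted p = 0.18). Ccl2 was lowest in Tex10-deficient replicate 1 as the germ cell genes were, but highest in WT replicate 1. Vcam1, an adhesion molecule of the same list, stood at 167 and 165 FPKM in Tex10-deficient libraries and 73.5 and 68.3 FPKM in wild-type libraries (1.22, SE 0.63, adjusted p = 0.45). The list's median lay between 0.00 (without WT replicate 2) and 0.32 (without Tex10-deficient replicate 2). Targets of p53 (median 0.04 over 10 genes) and of Wnt signalling (median 0.08 over 9) had 0 and 1 member lower at an unadjusted p under 0.05 (10.5% of all genes). The p53 median lay between −0.21 (without Tex10-deficient replicate 2) and 0.25 (without Tex10-deficient replicate 1), against −0.15 and 0.08 over all genes. The Wnt median lay between −0.14 (without WT replicate 2) and 0.16 (without Tex10-deficient replicate 1). Lef1, a transcription factor of the Wnt pathway, was that member (log2 difference −1.05, SE 0.47, adjusted p = 0.35).

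Among genes whose groups did not overlap, those with the smallest p on the lower side mostly kept 1 order of libraries. Kcnj9, an inwardly rectifying potassium channel subunit (chr1:172320501-172329318, minus strand, mm10), stood at 0.208 and 0.641 FPKM in Tex10-deficient libraries and 4.92 and 13.5 FPKM in wild-type libraries (log2 difference −2.72, SE 0.42, adjusted p = 0.074). Tprn, which encodes taperin (chr2:25262618-25269885, plus strand, mm10), stood at 2.29 and 6.41 FPKM in Tex10-deficient libraries and 19.0 and 48.2 FPKM in wild-type libraries (−2.67, SE 0.43, adjusted p = 0.074). Glipr1l1, a glycoprotein of the sperm head (chr10:112060189-112078510, plus strand, mm10), stood at 1.48 and 4.55 FPKM in Tex10-deficient libraries and 12.3 and 46.1 FPKM in wild-type libraries (−2.75, SE 0.48, adjusted p = 0.074). In these 3 genes every library kept the same order, with Tex10-deficient replicate 1 lowest and WT replicate 2 highest. Among the others, Ccdc151 and Ttc25 encode docking factors for outer dynein arms, Prss40 and Prss46 serine proteases of the testis, and Rbm44 an RNA-binding protein of the bridges between germ cells. The rule also took Spata45, Slc35g3, Ccdc87 and Mgat4d. Over these 9 genes log2 differences lay between −2.55 and −1.67, with an adjusted p of 0.074 each. Slc35g3, a solute carrier family gene, had its wild-type libraries closest together among them, with 1.95 and 1.21 FPKM in Tex10-deficient libraries and 6.10 and 8.33 FPKM in wild-type libraries.

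On the higher side the smallest p fell to genes of varied function. Sfi1, a centrin-binding centrosomal protein (chr11:3131850-3193463, minus strand, mm10), stood at 5.58 and 7.48 FPKM in Tex10-deficient libraries and 1.91 and 1.39 FPKM in wild-type libraries (log2 difference 1.5, SE 0.28, adjusted p = 0.074). Ptn, the secreted growth factor pleiotrophin (chr6:36714929-36810220, minus strand, mm10), stood at 18.3 and 14.7 FPKM in Tex10-deficient libraries and 6.29 and 3.74 FPKM in wild-type libraries (1.57, SE 0.30, adjusted p = 0.074). Mrc2, a receptor that takes up collagen (chr11:105292643-105351139, plus strand, mm10), stood at 5.53 and 4.88 FPKM in Tex10-deficient libraries and 0.478 and 1.74 FPKM in wild-type libraries (1.62, SE 0.32, adjusted p = 0.074). All 3 had Tex10-deficient replicates within 2-fold of each other. The difference of Sfi1 was 1.52 in MI spermatocytes (adjusted p = 0.051) and 1.21 in spermatogonia (adjusted p = 0.19), none past the test.

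Ctsk, the collagen-degrading cathepsin K, stood at 13.8 and 11.6 FPKM in Tex10-deficient libraries and 2.46 and 4.40 FPKM in wild-type libraries (log2 difference 1.66, SE 0.37, adjusted p = 0.078). Gpx3, the secreted glutathione peroxidase, stood at 150 and 117 FPKM in Tex10-deficient libraries and 20.4 and 52.1 FPKM in wild-type libraries (1.99, SE 0.48, adjusted p = 0.091). Lipg, the endothelial lipase, stood at 48.3 and 47.8 FPKM in Tex10-deficient libraries and 16.7 and 17.4 FPKM in wild-type libraries (1.44, SE 0.36, adjusted p = 0.095). Ctsk and Lipg had replicates within 2-fold of each other in both genotypes, whereas the wild-type libraries of Gpx3 were further apart. The rule also took Sec14l4, Cstad, Enpp6, Ndufa3, Rpp25l, Zfp641 and Gpr153, with log2 differences from 1.43 to 2.09 and adjusted p from 0.074 to 0.096.

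**Figure D5:**
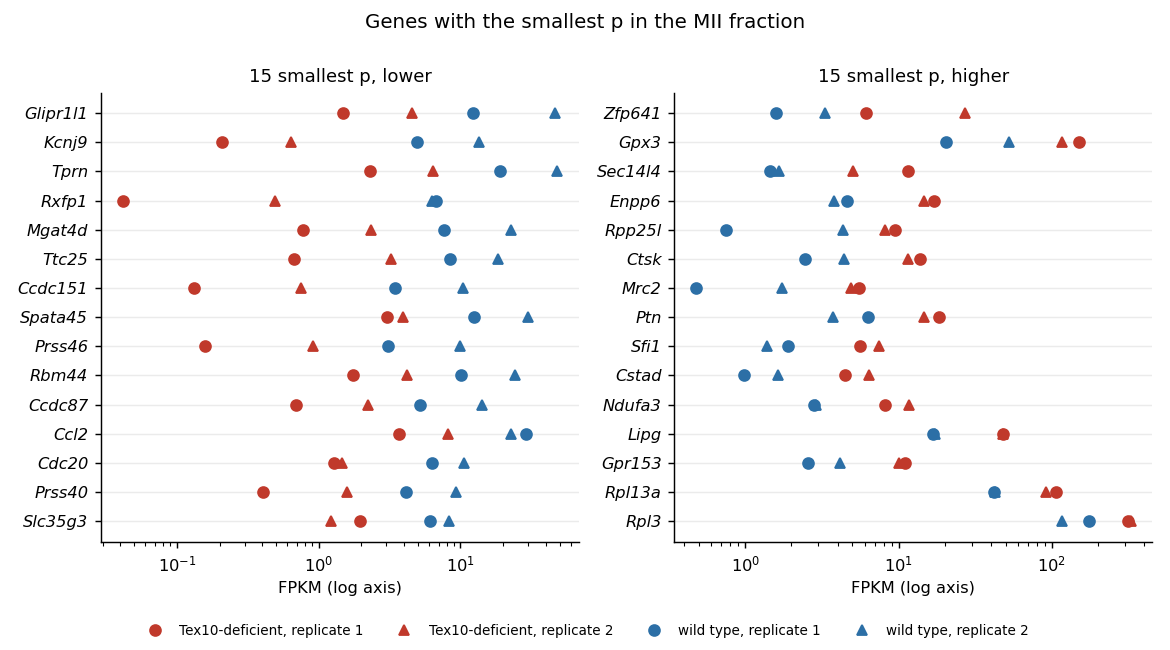
FPKM (log axis) in the 4 MII libraries of the 15 lower and the 15 higher genes with the smallest unadjusted p among genes whose groups do not overlap, Tex10-deficient in red and wild type in blue, circle for replicate 1 and triangle for replicate 2. On the lower side WT replicate 2 is highest in all genes but Rxfp1 and Ccl2, and on the higher side the order of the replicates varies from gene to gene.

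Rpl3 and Rpl13a, both proteins of the large ribosomal subunit, were also among the 15 higher genes. Rpl3 stood at 312 and 326 FPKM in Tex10-deficient libraries and 176 and 117 FPKM in wild-type libraries (log2 difference 1.15, SE 0.27, adjusted p = 0.083). Rpl13a stood at 107 and 91.4 FPKM in Tex10-deficient libraries and 41.8 and 42.7 FPKM in wild-type libraries (1.20, SE 0.30, adjusted p = 0.095). Their groups were apart, but processed copies of such genes share sequence with them, so these levels are uncertain. Over 83 ribosomal protein genes, a list added after seeing the data, 78 had a higher estimate (48.4% of all genes), 32 did not overlap on the higher side (17.3%), 16 were higher at an unadjusted p under 0.05 (2.74%) and 0 passed over all genes (median 0.62). Their median level was 149 and 69.8 FPKM in Tex10-deficient libraries and 86.2 and 54.8 FPKM in wild-type libraries, so WT replicate 1 exceeded Tex10-deficient replicate 2. The median difference was 0.19 without Tex10-deficient replicate 1 and 1.10 without Tex10-deficient replicate 2, against 0.08 and −0.15 over all genes. It was 0.34 without WT replicate 2 and 0.87 without WT replicate 1, against −0.00 and −0.02 over all genes.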

How the data were processed

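Bulk polyA RNA-seq libraries of sorted testis cells were analysed, 16 in all, in 8 groups of 2, of which the 4 titled MII are compared. Per the submitters' processing notes, the tools were Cufflinks 2.2.1, STAR 2.7.6a, cutadapt, Trim Galore 0.6.3 and FastQC 0.10.1, and the build mm10. The authors deposited 1 table of FPKM plus 1 per gene; its smallest value is 1.0, and 1 was subtracted to give FPKM. Of 13101 genes, 1 with a letter in a cell was left out. FPKM totals per library (187713 to 533859) are not depth, and the depth is unknown. The sources used here do not state the strand of counting, so overlapping genes and near-identical copies cannot be told apart.

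Groups follow the sample titles. In the cell type field the Tex10-deficient MII libraries carry the names of other cell types, and that field was not used. A limma 3.58.1 model (R 4.3.3) with mean-variance trend was fitted to log2(FPKM + 1) of all 16 libraries by group, leaving 8 residual degrees of freedom, over the 13099 genes that reached 1 FPKM in 2 or more libraries. P-values were adjusted by Benjamini-Hochberg over all of them, and genes at an adjusted p under 0.05 are called. On this scale the change of low genes is understated. The MII difference was also set against the mean difference of the other 3 cell types. The script was tested on simulated data. Tables and figures used Python 3.11.15, pandas 2.3.3 and matplotlib 3.10.9. Gene positions are from GENCODE M21 by symbol (12592 matched), and promoters from RefSeq.

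The lists and the comparison were chosen with earlier results of these data known. Genes were named by a rule: Tex10 and its complex, genes called, the 15 higher and 15 lower genes of smallest p whose groups did not overlap and whose higher group averaged 5 FPKM or more, and per list the 3 most abundant members, up to 2 with an unadjusted p under 0.05 and the member most against the median. Of these the text names a part, and 1 further gene is not reported here. Alternatives were other pseudocounts, filters and scalings, array weights, no trend, a block on replicate number, the 4 libraries alone and leaving out each library. Red blood cell markers (8 genes) were not analysed here.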

Additional observations from a re-analysis of the deposited data

Results flagged for a closer look

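Rxfp1, the relaxin receptor gene, stood out for a difference between fractions. Its log2 difference, Tex10-deficient minus wild type, was −2.59 in the MII fraction, against −0.57 in spermatogonia, −0.17 in MI spermatocytes and −0.25 in spermatids. The MII difference minus the mean of the other 3 was −2.26 (limma adjusted p = 0.039), and no gene was called for it in 12 of 16 fits that each left out 1 library. In the other fractions the gene did not exceed 0.697 FPKM in any library, which keeps their differences small on log2(FPKM + 1), so the contrast largely restates the MII difference. The gene entered the test through the wild-type MII libraries alone.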

How the results depend on the processing

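The count of called genes was 1 and depended on the processing: it was 5 with a pseudocount of 0.1 (all lower, Enkd1, H1fx and Hist1h4k among them, Rxfp1 not), 21 with a pseudocount of 5, 78 with median-of-ratios scaling, 190 with quantile normalization and 0 with limma on the 4 MII libraries alone (873 at an unadjusted p under 0.05); leaving out 1 library gave 1 to 1254. The count called for the difference from the other cell types was 1, and 0 with a pseudocount of 0.1, with at least 5 FPKM required in 2 libraries, without the trend, with array weights and with the replicate block (954 to 1593 at an unadjusted p under 0.05 in limma), and 0 to 904 when 1 library was left out. Rxfp1 was −4.52 (adjusted p = 0.053) with a pseudocount of 0.1 and −2.59 (adjusted p = 0.75) in the 4 libraries alone. With the replicate block 268 genes were called in the MII comparison, 18 higher and 250 lower, and Tex10 (−1.24) had an adjusted p of 0.044. The replicate numbers share no stated source, and the main fit used no pairing. Deviations of same-numbered libraries correlated at 0.203 in spermatogonia, 0.004 in MI, 0.308 in MII and −0.127 in spermatids. With 2 libraries a group these correlations cannot decide whether same-numbered libraries are paired. Tex10 ranged from −1.71 to −0.77 when 1 library was left out. Signs turned for Nol9 (0.02) and Insl3 (−0.05) under quantile normalization, and when 1 library was left out for Pelp1 (−0.71 to 0.35), Nol9 (−0.21 to 0.07), Mdn1 (−0.90 to 0.02), Pttg1 (−0.39 to 2.0), Ppm1h (−0.23 to 9.18), Insl3 (−0.32 to 0.67) and Insl6 (−0.63 to 0.45). The cause was not tested in any of these.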

Other observations

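Ppm1h, a protein phosphatase gene, stood at 3.01 and 2720 FPKM in the Tex10-deficient MII libraries and at 2.76 and 4.89 FPKM in the wild-type MII libraries, and between 0.721 and 10.9 FPKM in the other fractions, so that 1 library held nearly all of its signal. Rmrp, the RNA of RNase MRP, stood at 8706 and 913 FPKM in the Tex10-deficient MII libraries and at 4790 and 1941 FPKM in the wild-type MII libraries. In both genotypes replicate 1 was the higher.

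A list of 12 secreted stromal genes, added after seeing the data, had median levels of 1030 and 829 FPKM in the Tex10-deficient MII libraries and 737 and 528 FPKM in the wild-type MII libraries, against at most 48.9 FPKM in the other fractions. Its median log2 difference was 0.48, with 11 genes higher (48.4% of all genes), 5 without overlap (17.3%) and 1 higher at an unadjusted p under 0.05 (2.74%). The median was 0.12 without WT replicate 2 and 0.81 without WT replicate 1.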
